A study of Mus musculus with 16 samples.

Results

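The 9 genes Slc32a1, Gad1, Gad2, Pvalb, Sst, Vip, Npy, Reln and Lhx6 mark GABAergic interneurons, and they were taken by gene symbol from the count and FPKM tables of an RNA-seq experiment on brain cells labelled as microglia. All 9 were found among the 21878 mRNAs of the tables, and all 9 passed the minimum of 16 counts over all libraries that left 17885 mRNAs for testing. The mice were female wild-type C57BL/6 animals aged 8 weeks. The 8 EAE mice, a model of autoimmune neuroinflammation, were immunized with MOG35-55 in complete Freund's adjuvant and given 200 ng of pertussis toxin on days 0, 2 and 7, while the 8 PBS-treated mice had PBS injected on the same schedule. In the treatment field of the labels, the last residue of the peptide runs from 55 in EAE 1 to 62 in EAE 8. Brains were taken at peak disease, and CD11b+/CD45int cells were sorted to give 1 stranded total RNA library per mouse. Libraries carry the name of their group and their number in the labels, from 1 to 8.

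GABA is the main inhibitory transmitter of the brain. Interneurons make it from glutamate with the decarboxylases encoded by Gad1 and Gad2, and the vesicular transporter encoded by Slc32a1 loads it into synaptic vesicles. Most cortical interneurons can be sorted into classes that express parvalbumin (Pvalb), somatostatin (Sst) or vasoactive intestinal peptide (Vip), and the LIM homeobox factor Lhx6 acts in the lineage of the first 2 of these classes. Neuropeptide Y (Npy) and the secreted glycoprotein reelin (Reln) are made by further interneurons that overlap with these classes. Outside the cortex, Slc32a1 and both Gad genes are also expressed by the inhibitory neurons of the striatum, olfactory bulb and cerebellum.

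The label of the libraries and their content have to be read together, since these are genes of neurons in a sort for microglia. The total was 24587443–30244215 counts per EAE library and 26031889–34184576 per PBS library, and the 9 genes held 0.0718–0.0862% and 0.0870–0.112% of them, respectively. The summed FPKM (fragments scaled by gene length and library total) of 12 genes of all neurons was 1074–1350 in EAE libraries and 1287–1459 in PBS libraries. That of 17 microglia markers was 229–371 and 211–348, respectively, with none of these markers at 0 in any library. The defining microglia markers Tmem119, P2ry12 and Cx3cr1 had a mean FPKM of 7.44, 6.08 and 10.2 in PBS libraries, against 600.3 for Camk2a of excitatory neurons, 567.7 for Mbp of oligodendrocytes and 585.2 for Slc1a2 of astrocytes. These levels go against the label, so the libraries are described by group and not as pure microglia. The libraries were also not equally alike. As the ratio of the median squared difference between libraries to Poisson noise, the spread among EAE 6, 7 and 8 was 3.11–3.59 and that among PBS 5, 7 and 8 was 3.29–4.02, against 5.94–23.3 and 7.09–22.4 for the remaining pairs of each group. No label names a batch, so the differences below are also given within these 6 libraries and within the other 10.

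Reln was the member with the smallest p-value of the edgeR fit, and its upstream sequence is shown together with those of Npy and of the peptide genes Vip and Sst. The 250 bases before the start in the RefSeq promoter table overlap annotated exons (GENCODE) for some of the genes. The overlap is 196 bases for Slc32a1, 87 for Gad1, 122 for Gad2, 114 for Sst and 14 for 1 of the 3 starts of Lhx6. For Slc32a1 the exons are those of Gm14204, and for the others those of the gene itself. The windows of Slc32a1, Gad1 and Gad2 are not shown, and of Sst a stretch of 30 bases is given, which is exonic in that annotation. The sequences are those of the RefSeq table for GRCm38.p6, and each is written 5′ to 3′ on the strand of its gene. The first 3 end just before the RefSeq gene, with 250 bases for Reln and Npy and 225 for Vip, whose start in the table lies 25 bases inside the gene. Capitals mark the letters of a canonical TATA box or of the core of the response element for cyclic AMP, TGACGT.
Reln, chr5:22344706-22344955, minus strand: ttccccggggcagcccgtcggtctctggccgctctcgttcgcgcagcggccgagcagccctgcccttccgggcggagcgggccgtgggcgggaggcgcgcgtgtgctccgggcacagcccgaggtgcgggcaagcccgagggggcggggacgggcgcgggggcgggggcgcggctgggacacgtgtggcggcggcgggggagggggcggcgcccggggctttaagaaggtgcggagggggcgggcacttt
Npy, chr6:49822460-49822709, plus strand: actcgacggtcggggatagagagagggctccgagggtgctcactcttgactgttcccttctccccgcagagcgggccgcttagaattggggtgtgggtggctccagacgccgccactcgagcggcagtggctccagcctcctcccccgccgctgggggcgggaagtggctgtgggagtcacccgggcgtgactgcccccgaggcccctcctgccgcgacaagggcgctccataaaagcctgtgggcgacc
Vip, chr10:5638968-5639192, plus strand: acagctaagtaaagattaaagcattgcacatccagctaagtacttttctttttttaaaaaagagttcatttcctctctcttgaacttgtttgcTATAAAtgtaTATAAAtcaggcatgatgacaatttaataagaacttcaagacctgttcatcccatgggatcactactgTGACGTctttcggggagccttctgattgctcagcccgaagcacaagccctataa
Sst, chr16:23890874-23890903, minus strand, 30 bases: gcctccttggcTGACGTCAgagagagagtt
The palindrome TGACGTCA, which contains TGACGT on both strands, was found among the 9 genes in Sst, where it begins 48 bases before the start in the table, a start that lies 498 bases inside the RefSeq gene. Of the 32851 starts in the table, 1.55% had it within the 250 bases before them, both strands searched, and the distances and shares that follow refer to the same starts and windows. The shorter TGACGT was found in Sst and in Vip, 79 bases before the start, and in 6.47% of all windows. The TATA box letters, TATAAA, were found in Vip, at 3 places of which the third runs into the gene, and in Gad1, 141 bases before the start on the opposite strand, and in 12.4% of all windows. CACGTG, an E-box, was found in Reln, 71 bases before the start, and in 6.02% of all windows. No motif of these 4 was shared by the windows of Slc32a1, Gad1, Npy and Reln, the 4 genes with an adjusted p under 0.05 below. The start in the table lies 3498 bases inside the RefSeq gene for Slc32a1 and 826 for Gad1. The windows of these genes are therefore not the sequence upstream of the gene, and a match describes these letters only.

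The 9 genes were chosen on the measured difference between EAE and PBS-treated mice, so the values of that difference describe the choice and carry no test of it. In edgeR's quasi-likelihood fit over all mRNAs, 4 of the 9 had an adjusted p under 0.05 with lower values in EAE mice, and 0 had one with higher values (0 at an unadjusted p under 0.05 and 0 in DESeq2). The background was 1.76% of the tested mRNAs for lower values and 0.660% for higher values. No such share was counted at an unadjusted p over all 16 libraries or in DESeq2 and the other alternative fits over these libraries. Counts of genes from these are therefore given without a background. A |log2FC| over 1 besides was reached by 0 of the 9, against a background of 0.0224% for lower and 0.0951% for higher values. No member had groups without overlap, and 0.101% of all mRNAs had every EAE library below every PBS library. The log2FC was below 0 for 8 of the 9, as for 47.3% of all tested mRNAs, and its median was −0.34 over the 9 genes against 0.01 over all mRNAs tested. In bulk libraries, fewer cells of a type and less RNA per cell cannot be told apart.

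**Figure D1:**
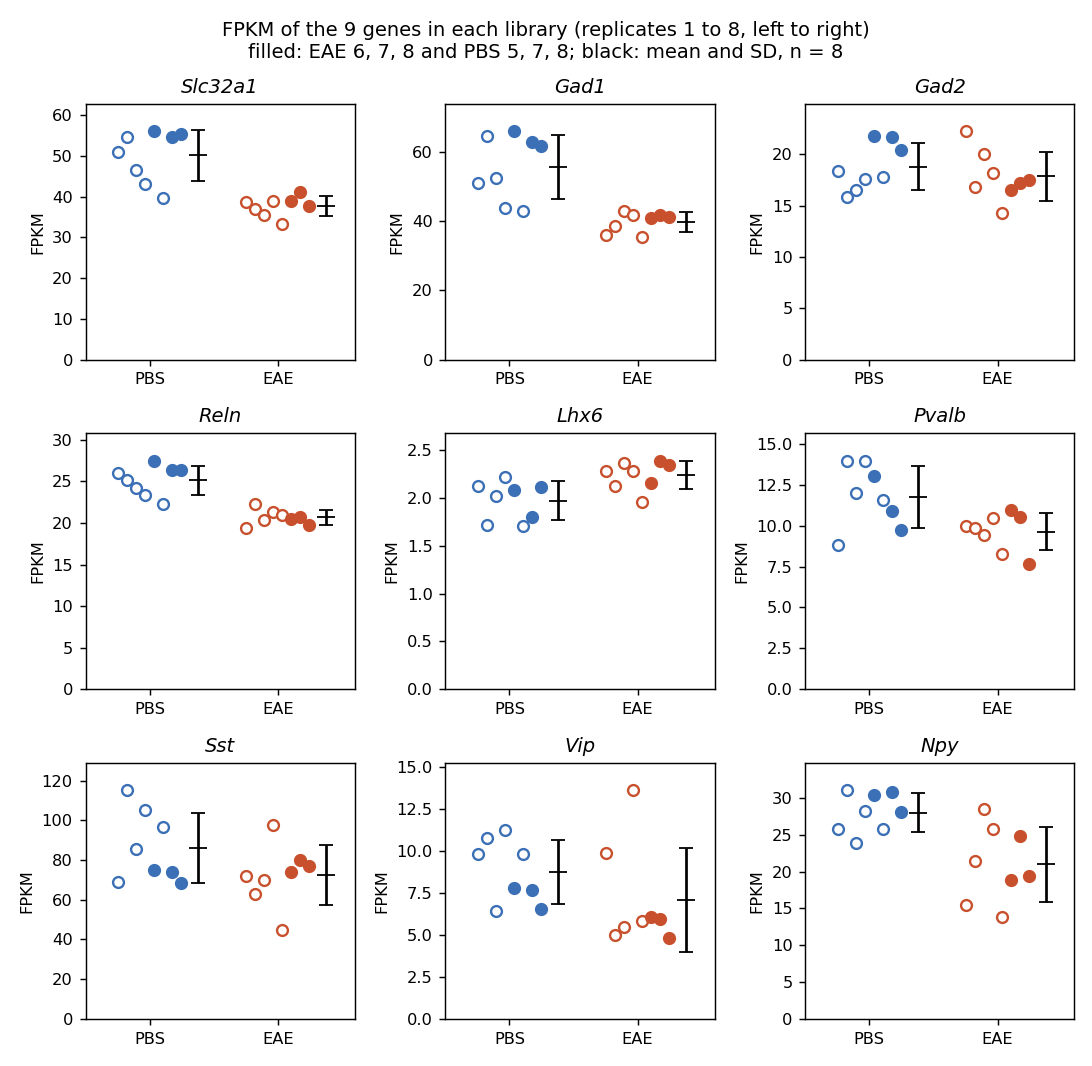
FPKM of each of the 9 genes in every library, with the PBS libraries 1 to 8 and then the EAE libraries 1 to 8 from left to right in each panel; each vertical axis starts at 0, filled circles are EAE 6, 7, 8 and PBS 5, 7, 8, and the black bars give mean and SD (n = 8). For Slc32a1, Gad1 and Reln, 7 of the 8 EAE libraries lay below the lowest PBS library, whereas for Gad2 only 1 did and for Lhx6 0 did.

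Slc32a1 and Gad1, which encode the proteins that load and make GABA, were both lower in EAE libraries. Slc32a1 encodes the only vesicular transporter for GABA and glycine and is located at chr2:158607260-158615747 on GRCm38.p6. Its FPKM was lowest at 33.2, with a median of 38.1 and a highest value of 41.2, in EAE libraries, and 39.7, 52.8 and 56.1 in PBS libraries. The groups overlapped only through EAE 7, the highest EAE library, and PBS 6, the lowest PBS library. The mean was 37.6 ± 2.44 (SD, n = 8) for EAE and 50.1 ± 6.27 for PBS-treated mice, and the log2FC was −0.47 (SE 0.07) with a Benjamini-Hochberg adjusted p of 0.00233 in edgeR.

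Gad1 encodes GAD67, the isoform that makes most of the GABA of the brain, and is located at chr2:70561303-70602014. Its FPKM had a lowest, median and highest value of 35.4, 41.0 and 43.0 in EAE libraries and of 42.9, 57.0 and 66.0 in PBS libraries. Here EAE 3 just reached the range of the PBS libraries, of which PBS 6 was the lowest and PBS 5 the highest. The mean was 39.8 ± 2.83 (SD, n = 8) and 55.6 ± 9.33, respectively, with a log2FC of −0.53 (SE 0.08) and an edgeR adjusted p of 0.00309. For both genes the 8 PBS libraries were more spread than the 8 EAE libraries, with a coefficient of variation of 12.5% against 6.48% for Slc32a1 and of 16.8% against 7.09% for Gad1. The ratio of Slc32a1 to Gad1 FPKM was 0.825–1.07 in EAE libraries and 0.846–1.00 in PBS libraries, so the groups did not separate in it.

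Gad2 encodes GAD65, the isoform tied to synaptic vesicles, and its values overlapped between the groups over nearly their whole range. It lies at chr2:22621015-22693877, and its FPKM was 14.2, 17.4 and 22.3 (lowest, median, highest) in the EAE group and 15.9, 18.1 and 21.8 in PBS libraries. The highest of all 16 values was that of EAE 1, and the lowest was that of EAE 5. The mean was 17.8 ± 2.41 (SD, n = 8) and 18.8 ± 2.28, respectively, with a log2FC of −0.12 (SE 0.08) and an edgeR adjusted p of 0.451. The FPKM ratio of Gad1 to Gad2 had a median of 2.33 over the EAE libraries (1.62–2.49) and of 2.95 over the PBS libraries (2.42–4.07), and 5 EAE libraries lay below the lowest PBS library. That of Slc32a1 to Gad2 had a median of 2.18 (1.73–2.40) and 2.64 (2.24–3.44), with 5 EAE libraries again below the lowest PBS library.

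Reln encodes reelin, which guides the layering of the cortex in development and acts on synapses in the adult. The gene lies at chr5:21884454-22344705. Its FPKM had a lowest, median and highest value of 19.3, 20.6 and 22.3 in EAE libraries and of 22.3, 25.6 and 27.5 in PBS libraries. EAE 2, the highest EAE library, and PBS 6, the lowest PBS library, were the ones that met. The mean was 20.7 ± 0.927 (SD, n = 8) and 25.2 ± 1.75, respectively, with a log2FC of −0.33 (SE 0.05) and an edgeR adjusted p of 0.00165. Reln had the smallest coefficient of variation of the 9 genes, at 4.48% in EAE libraries and 6.95% in PBS libraries, from 5856–7426 and 7273–10554 counts. Ranked by p-value among the 17885 tested mRNAs, Reln was at place 2, Slc32a1 at place 7 and Gad1 at place 16.

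Lhx6, the transcription factor of the parvalbumin and somatostatin lineage, was the member whose log2FC was above 0. It lies at chr2:36081950-36105992 and had the fewest counts of the 9 genes in every PBS library, with 204–292. In EAE libraries it had 238–282 counts, and Vip had fewer in EAE 2, 3, 7 and 8, Npy in EAE 1 and 5 and Pvalb in EAE 8. Its FPKM was 1.95, 2.28 and 2.39 (lowest, median, highest) in the EAE group and 1.70, 2.05 and 2.22 in PBS libraries, and the groups overlapped. The mean was 2.24 ± 0.148 (SD, n = 8) and 1.97 ± 0.201, with a log2FC of 0.13 (SE 0.08) and an edgeR adjusted p of 0.431. The FPKM ratio of Reln to Lhx6 was 8.43–10.7 in EAE libraries and 10.5–14.7 in PBS libraries.

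Pvalb encodes a calcium-binding protein of fast-spiking basket and chandelier cells and lies at chr15:78191112-78206400. Its FPKM had a lowest, median and highest value of 7.63, 9.89 and 10.9 in EAE libraries and of 8.84, 11.8 and 14.0 in PBS libraries. All 8 EAE libraries lay below the PBS median, but 2 lay below the lowest PBS library. The mean was 9.63 ± 1.14 (SD, n = 8) and 11.7 ± 1.88, with a log2FC of −0.34 (SE 0.10) and an edgeR adjusted p of 0.0850. Of the 16 edgeR fits without 1 library, 2 gave it an adjusted p under 0.05, at 0.0499 without EAE 4 and 0.0420 without PBS 1. In DESeq2 over all 16 libraries, its adjusted p was 0.0342 (log2FC −0.34), which made 5 of the 9 genes lower there. DESeq2 also called 20 genes of the 8 lists below, against 10 in edgeR, and its share over all mRNAs was not counted.

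Of the neuropeptide genes, Npy was the one with an adjusted p under 0.05. Npy encodes neuropeptide Y, a peptide of several interneuron classes, and lies at chr6:49822710-49829507. Its FPKM was 13.8, 20.4 and 28.5 (lowest, median, highest) in the EAE group and 23.9, 28.1 and 31.0 in PBS libraries. The EAE libraries were spread widely, with EAE 5 and EAE 1 lowest and EAE 3, EAE 4 and EAE 7 inside the range of the PBS libraries. The mean was 21.0 ± 5.11 (SD, n = 8) and 28.0 ± 2.65, with a log2FC of −0.47 (SE 0.12) and an edgeR adjusted p of 0.0439. This call was kept in 7 of the 16 fits without 1 library. It was lost without EAE 1, 2, 6 or 8 and without PBS 2, 3, 5, 7 or 8, with an edgeR adjusted p of up to 0.0995 (without PBS 2). With all 16 libraries and other tools or scalings, it was 0.00783–0.0718.

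Sst encodes somatostatin, an inhibitory peptide of dendrite-targeting interneurons, and lies at chr16:23889573-23891342. Its FPKM had a lowest, median and highest value of 44.6, 73.0 and 97.8 in EAE libraries and of 68.7, 80.3 and 115 in PBS libraries. The groups overlapped over most of their range, with EAE 4 above 6 of the PBS libraries. The mean was 72.3 ± 15.1 (SD, n = 8) and 86.1 ± 17.7, with a log2FC of −0.31 (SE 0.13) and an edgeR adjusted p of 0.228. Vip, a peptide of interneurons that inhibit other interneurons, lies at chr10:5639193-5647617. Its FPKM was 4.80, 5.88 and 13.6 (lowest, median, highest) in the EAE group and 6.41, 8.78 and 11.2 in PBS libraries. EAE 4 and EAE 1 were high, at 13.6 and 9.86, and the other 6 EAE libraries lay below the lowest PBS library. The mean was 7.06 ± 3.08 (SD, n = 8) and 8.74 ± 1.89, with a log2FC of −0.36 (SE 0.19) and an edgeR adjusted p of 0.342. Without EAE 4, the adjusted p of Vip was 0.0284 and its log2FC was −0.56 in the edgeR test.

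When edgeR was run 16 times without a different library each time, Slc32a1, Gad1 and Reln kept an adjusted p under 0.05 every time. Within the 6 libraries that were most alike, 6 of the 9 genes were called lower by edgeR at an adjusted p under 0.05, where 13.1% of 17239 tested mRNAs did. These were Slc32a1 (log2FC −0.52), Gad1 (−0.65), Gad2 (−0.35), Vip (−0.42), Npy (−0.53) and Reln (−0.42). Within the other 10 libraries, 0 of the 9 did, where 0.0286% of 17461 mRNAs did, and 6 of the 9 had an unadjusted p under 0.05, against 6.71% of all mRNAs. The log2FC in those 10 libraries was −0.43 for Slc32a1, −0.46 for Gad1 and −0.28 for Reln, and edgeR gave adjusted p-values of 0.0900, 0.118 and 0.112. Gad2 and Sst differed most between the sets. Gad2 had a log2FC of 0.02 in the other 10 libraries, and Sst had one of 0.06 in the 6 libraries most alike and of −0.51 in the other 10. The difference between the sets was not tested. With a term for the set, the edgeR fit again called 4 of the 9 genes, and its share over all mRNAs was not counted.

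**Figure D2:**
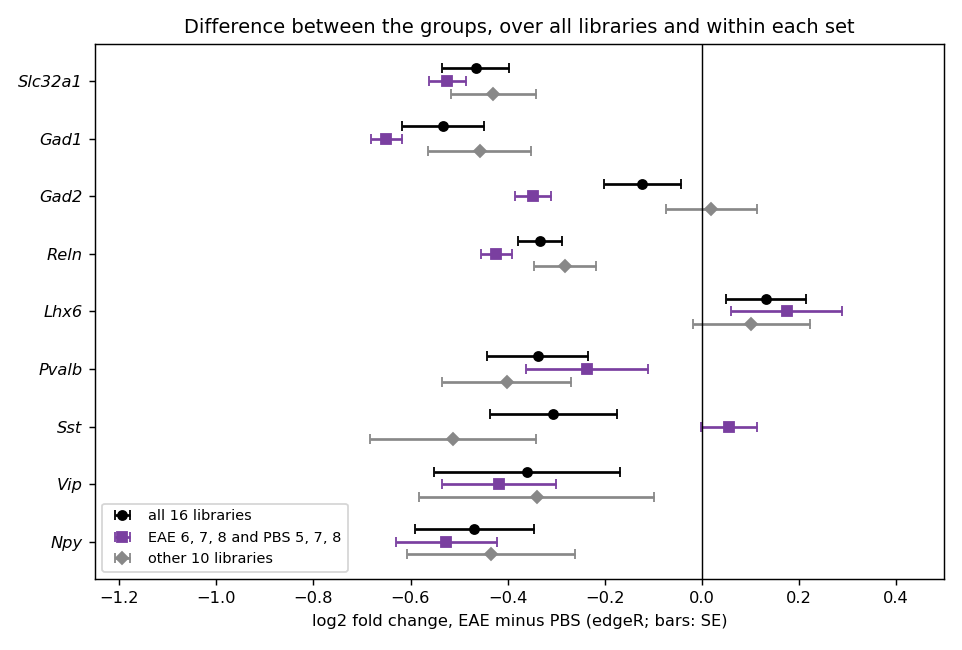
log2 fold change of each gene between EAE and PBS-treated mice from edgeR (horizontal axis; bars are SE), over all 16 libraries (black circles), within EAE 6, 7, 8 and PBS 5, 7, 8 (purple squares) and within the other 10 libraries (grey diamonds). Slc32a1, Gad1, Reln, Pvalb, Vip and Npy were below 0 in each set, Lhx6 was above 0 in each set, and Gad2 and Sst changed side.

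The levels of the 9 genes relative to each other within a group played no part in the choice of the genes. On the FPKM scale as deposited, the mean level in PBS libraries fell in the order Sst, Gad1, Slc32a1, Npy, Reln, Gad2, Pvalb, Vip and Lhx6, with Sst 43.7-fold above Lhx6. In PBS libraries all 8 pairs of neighbours in this order differed, with adjusted p-values of 0.0125–0.0312 in exact sign-flip permutation tests over the 8 libraries (two-sided, adjusted over the 8 pairs; the smallest unadjusted p that the test allows is 0.0078). In EAE libraries the order of the means was the same, and 5 of the 8 pairs of neighbours differed. The difference between Gad1 and Slc32a1 (adjusted p = 0.0804, exact sign-flip permutation test), between Npy and Reln (0.906) and between Reln and Gad2 (0.0521) did not pass. Npy was above Reln in 6 of 8 PBS libraries and in 3 of 8 EAE libraries. Gad1 was above Slc32a1 in 7 of 8 libraries of each group.

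The order also depends on the gene length behind the FPKM values. The length implied by the deposited counts and FPKM values was 9460 bases for Gad2, 5156 for Gad1, 11702 for Reln and 1555 for Vip, whereas the merged exons of these genes in GENCODE on GRCm38.p6 have 5876, 7639, 23738 and 3402 bases. On the annotated lengths, an alternative chosen after seeing the data, Slc32a1 stood above Gad1 in PBS libraries, with mean FPKM values of 50.3 ± 6.29 (SD, n = 8) and 37.5 ± 6.30. Gad2 then stood above Npy and Reln, at 30.2 ± 3.68 against 28.0 ± 2.65 and 12.4 ± 0.861, respectively. Sst remained the highest and Lhx6 the lowest of the 9 genes in both groups. The differences between EAE and PBS-treated mice do not depend on these lengths.

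How the 9 genes varied together was taken from libraries of 1 group at a time, on the scale of log2(CPM + 0.1), so that the difference between the groups does not enter. In PBS libraries 2 of the 36 pairs passed at an adjusted p under 0.05. Slc32a1 and Gad1 had r = 0.95 (exact permutation p = 0.00129, adjusted p = 0.0232; rho = 0.88, adjusted p = 0.0869; n = 8) and r = 0.85 without the 2 libraries farthest from the median of Slc32a1. Slc32a1 and Reln had r = 0.95 (exact permutation p = 0.000645, adjusted p = 0.0232; rho = 0.95, adjusted p = 0.0411; n = 8) and r = 0.79 without those 2 libraries. Gad1 and Reln had r = 0.86 (exact permutation adjusted p = 0.0789). PBS 5, 7 and 8 were among the highest PBS libraries for all 3 genes, and PBS 4 and 6 were the lowest, so that the relation also follows the sets of libraries. The set of 3 libraries is too small for a correlation of its own, and so is the rest of the group, with 5. The 2 pairs were reduced to 0 without PBS 3, 4, 6 or 7.

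Sst had r = 0.80 with Pvalb in PBS libraries, while its r was −0.74 with Gad2 (exact permutation adjusted p = 0.326) and −0.67 with Reln (adjusted p = 0.369), and none of the 3 passed. In EAE libraries 30 of the 36 pairs had an r above 0 against 20 in PBS libraries, and 0 passed at an adjusted p under 0.05, with 4 at an unadjusted exact permutation p under 0.05. The highest was that of Gad1 and Npy, at r = 0.89 (exact permutation adjusted p = 0.111). The 2 pairs that passed in PBS libraries had r = 0.44 (Slc32a1 and Gad1) and r = −0.15 (Slc32a1 and Reln) in EAE libraries. Without EAE 1, 3 pairs passed in EAE libraries, and without EAE 2, 1 did. The difference in correlation between the groups was not tested.

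**Figure D3:**
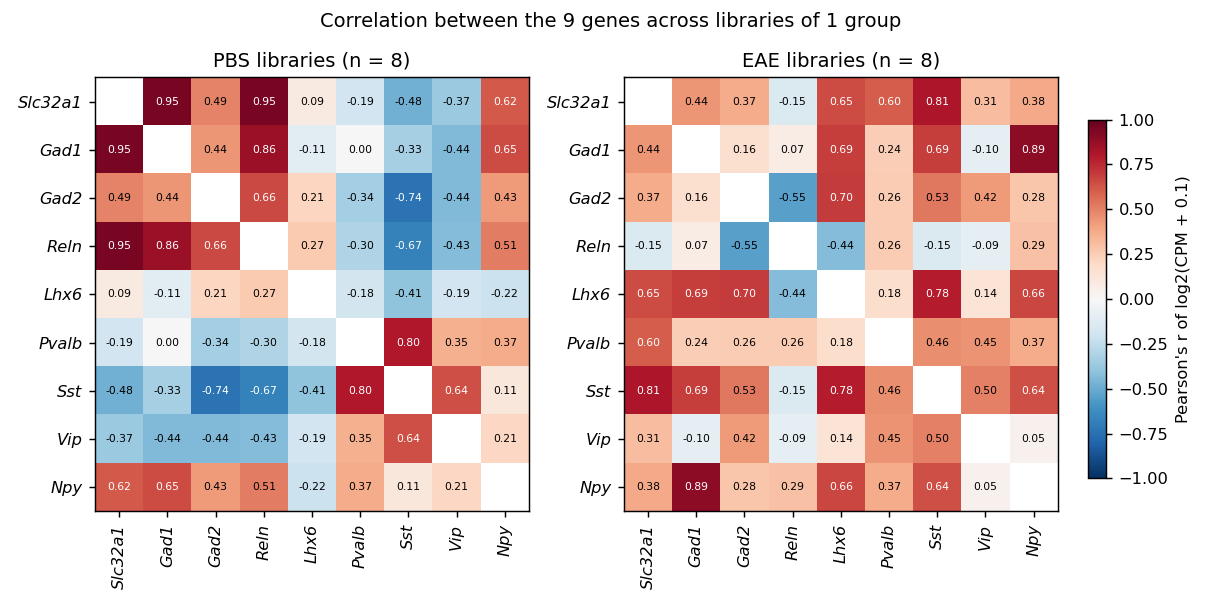
Pearson's r of log2(CPM + 0.1) for each pair of the 9 genes over the 8 PBS libraries (left) and the 8 EAE libraries (right), from −1 (blue) to 1 (red). Slc32a1, Gad1 and Reln form a block of high values in PBS libraries, at 0.86–0.95, where the EAE libraries have values of 0.44, −0.15 and 0.07.

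Against the mean of the 12 genes of all neurons, 0 of the 9 genes passed in PBS libraries and 3 did in EAE libraries. These were Gad2 (r = 0.84), Sst (r = 0.88) and Lhx6 (r = 0.84), each with an adjusted p of 0.0497 in the exact permutation test over 9 genes (n = 8), and no Spearman rho passed. The 3 calls were reduced to 0 when any of EAE 2 to EAE 8 was left out. Reln had r = −0.45 and −0.35 with the genes of all neurons in PBS and EAE libraries, with exact permutation adjusted p-values of 0.536 and 0.385.

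The neighbouring steps of GABA metabolism were described with a list of 7 genes for the reuptake, breakdown and precursor transport of GABA. All 7 had a log2FC below 0, with a median of −0.19, and edgeR called 4 of them. Slc6a11, the astrocyte GABA transporter GAT-3, had a log2FC of −0.35 (SE 0.08) and an edgeR adjusted p of 0.0232. Abat and Aldh5a1, the enzymes that break GABA down in mitochondria, had log2FC values of −0.22 and −0.18, with edgeR adjusted p-values of 0.0277 and 0.0205. Slc38a1, a glutamine transporter, had a log2FC of −0.15 and did not pass.

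On the receiving side, 14 of 15 GABA receptor subunits had a log2FC below 0, with a median of −0.19, and 3 had an adjusted p under 0.05. Gabrd, the delta subunit of extrasynaptic receptors, had a log2FC of −0.28 (edgeR adjusted p = 0.0175). Gabbr1, a subunit of the metabotropic GABA-B receptor, had one of −0.16 (edgeR adjusted p = 0.0264). Of 8 genes of the inhibitory postsynapse, 1 passed, Slc12a5, which encodes the neuronal chloride exporter KCC2 (log2FC −0.19, edgeR adjusted p = 0.0309). The scaffold gene Gphn had a log2FC of 0.01, and Nlgn2, a neuroligin of inhibitory synapses, one of −0.20 (edgeR adjusted p = 0.315).

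Further interneuron genes were mostly below 0 but rarely passed. Of 21 subtype markers besides the 9 genes, 19 had a log2FC below 0, with a median of −0.21, and 1 passed, Syt2, a vesicle protein of fast-spiking terminals (log2FC −0.29, edgeR adjusted p = 0.0293). Nos1, which encodes neuronal nitric oxide synthase, had a log2FC of −0.29 and an edgeR adjusted p of 0.0689. Elfn1, a synaptic protein of somatostatin cells, had a log2FC of −0.21 and an edgeR adjusted p of 0.0731. Of 14 transcription factors of interneuron lineages, 9 were below 0 and 0 passed in edgeR, with 3 lower and 1 higher at an unadjusted p under 0.05 and 1 lower in DESeq2. Dlx6 had the smallest p, with a log2FC of −0.48 (edgeR adjusted p = 0.0926), and was followed by Sp9, at −0.58 (0.123), and Prox1, at 0.14 (0.153). Of 8 components of the perineuronal net, the matrix that surrounds parvalbumin cells, all were below 0 and 1 passed, the link protein gene Hapln4 (log2FC −0.33, edgeR adjusted p = 0.0255). Hapln1 and Ncan had edgeR adjusted p-values of 0.0533 and 0.0689.

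Genes that act downstream of reelin and of the peptides were not called. Of 9 genes for the reelin receptors, their adaptor and downstream proteins, 0 passed in edgeR, at an unadjusted p or in DESeq2, and their log2FC values lay between −0.10 and 0.02. The smallest p-values among them were those of Src (log2FC −0.10), Crkl (−0.06) and the receptor gene Vldlr (−0.06), with edgeR adjusted p-values of 0.455, 0.571 and 0.617. Of 12 receptors for somatostatin, neuropeptide Y and vasoactive intestinal peptide, 11 were tested and 0 passed in edgeR or DESeq2, with 3 lower at an unadjusted p under 0.05. Sstr2, Sstr3 and Sstr1 had log2FC values of −0.34, −0.17 and −0.27, with edgeR adjusted p-values of 0.194, 0.212 and 0.263. Over the 8 lists together, 10 of 93 tested genes had an adjusted p under 0.05 with lower values in EAE mice and 0 with higher values, 76 of 93 were below 0 and the median log2FC was −0.17. This count was 24 without EAE 4, 2 without EAE 1, EAE 2 or PBS 2, 5 without EAE 6 and 6 without PBS 7. It was 36 within the 6 libraries most alike, whose small spread favours small p-values, and 0 within the other 10. Of the called genes of these lists named above, Gabrd kept an edgeR adjusted p under 0.05 without any 1 library, and each of the others lost it without EAE 1, EAE 2 or PBS 2 and without 1 or more further libraries, with adjusted p-values of up to 0.0778 (Slc12a5).

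**Figure D4:**
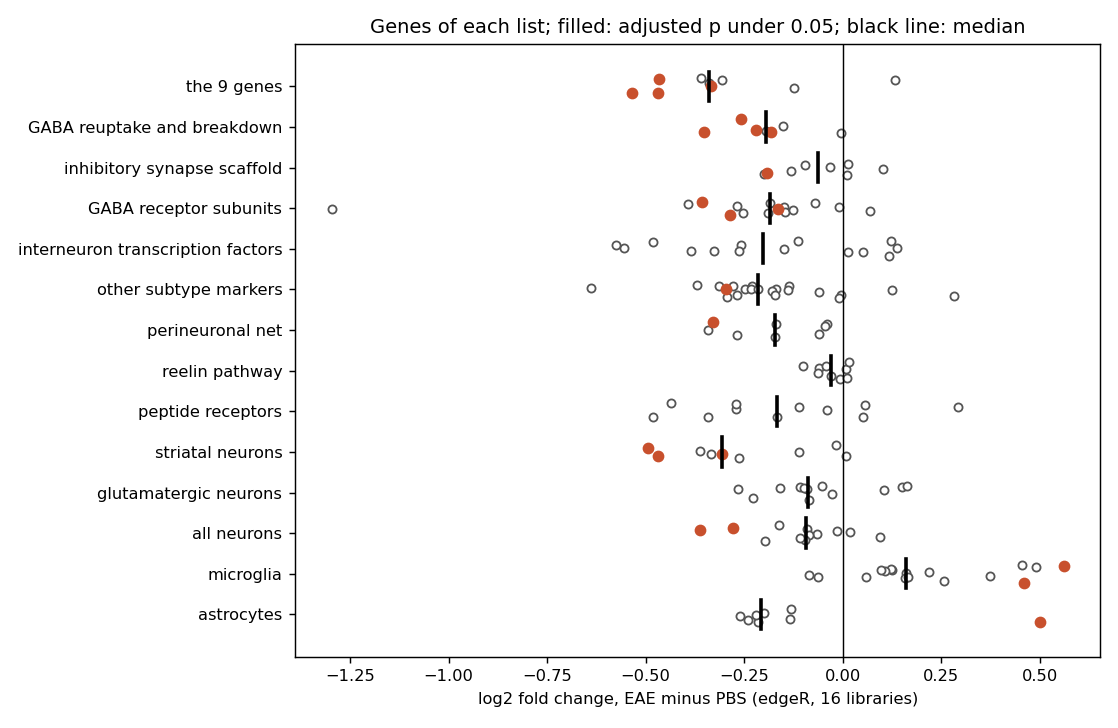
log2 fold change between EAE and PBS-treated mice from edgeR over 16 libraries (horizontal axis), with 1 circle for each tested gene of a list, filled where the adjusted p was under 0.05, and a black line at the median of the list. The 9 genes have a median of −0.34, close to that of the striatal genes at −0.31, while glutamatergic genes have one of −0.09 and microglia markers one of 0.16.

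Markers of several other cell types differed between the groups as well. Of 12 genes of all neurons, 10 were below 0, with a median log2FC of −0.09, and Syt1 (log2FC −0.28) and Syp (−0.36), which encode proteins of synaptic vesicles, passed with edgeR adjusted p-values of 0.0326 and 0.0293. Of 12 glutamatergic genes, 9 were below 0, with a median of −0.09, and 0 passed in edgeR or DESeq2, with 2 lower at an unadjusted p under 0.05. Syt1 and Syp each kept their calls in 9 of the 16 fits without 1 library. Slc17a7, which encodes the vesicular glutamate transporter of cortical neurons, had a log2FC of −0.16 (edgeR adjusted p = 0.151). Of 9 genes of striatal medium spiny neurons, which are GABAergic projection cells, 8 were below 0, with a median of −0.31, and 3 passed. They included Adora2a (log2FC −0.50) and Ppp1r1b (−0.31), with edgeR adjusted p-values of 0.00839 and 0.0113, and both kept their calls without any 1 library. The summed FPKM of the striatal genes was 191–269 in EAE libraries and 269–317 in PBS libraries. Of 7 Purkinje cell genes, 8 cerebellar granule cell genes and 5 Cajal-Retzius cell genes, 0 passed in edgeR, against 1, 3 and 1 lower at an unadjusted p under 0.05 and 0, 1 and 0 in DESeq2, with median log2FC values of 0.04, −0.17 and −0.09, respectively. Cajal-Retzius cells are a source of reelin in the outermost cortical layer.

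Among non-neuronal markers, 2 of 17 microglia markers passed with higher values in EAE mice, Itgam (log2FC 0.46) and Trem2 (0.56), and the median of the list was 0.16. Itgam kept its edgeR call in all 16 fits without 1 library, Trem2 in 11 and Gfap, below, in 8. Of 8 astrocyte markers, Gfap passed with higher values (log2FC 0.50, edgeR adjusted p = 0.0312), while the other 7 were below 0, and the summed FPKM of all 8 was 1166–1782 in EAE libraries and 1357–1610 in PBS libraries. Of 9 neutrophil markers, 4 passed with higher values, with a summed FPKM of 23.1–64.2 in EAE libraries and 9.43–24.3 in PBS libraries. Of 8 oligodendrocyte and 7 endothelial markers, 0 passed in edgeR, against 3 and 0 lower at an unadjusted p under 0.05 and 1 and 0 in DESeq2. The part of these markers in the values of the 9 genes was not tested.

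The mRNAs that varied most like each of the 9 genes were ranked by Pearson's r after the mean of each group was subtracted, over 16 libraries and 14760 mRNAs with a mean CPM of at least 1. Slc32a1 was followed by Maged1, Tln2 and Ctsl (r = 0.93 for each). Gad1 was followed by Cltc (r = 0.95), which encodes the clathrin heavy chain, Th (0.94), which encodes tyrosine hydroxylase, and Stom (0.93). Gad2 was most like Zcchc12 (r = 0.91), Sst was most like Nptn (0.95) and Vip was most like Cope (0.95). The values for the other members were lower, with Npy most like Ccdc47 (r = 0.87), Reln most like Shc4 (0.87), Pvalb most like Cmtm7 (0.85) and Lhx6 most like Oasl2 (0.84). Among the 9 genes themselves, the highest value was that of Slc32a1 and Gad1 (r = 0.86). These correlations are descriptions, and they share the libraries and their sets.

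Tyrosine hydroxylase is the enzyme that limits dopamine synthesis. GABAergic periglomerular interneurons of the olfactory bulb are among the several cell types that make it, so Th is not a marker of the bulb alone. Th had an FPKM of 2.47–4.88 in EAE libraries and 3.002–8.97 in PBS libraries, with a log2FC of −0.84 (SE 0.20) and an edgeR adjusted p of 0.0296. It was high in PBS 1, 2, 5, 7 and 8, at 6.93–8.97, and low in PBS 4 and PBS 6, at 3.60 and 3.002. In PBS 4 and PBS 6, Gad1 had an FPKM of 43.8 and 42.9, Slc32a1 one of 43.1 and 39.7 and Reln one of 23.3 and 22.3, so that these libraries lay nearest to the EAE libraries for all 3 genes.

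After Th had been seen, a list of 10 genes of olfactory bulb cells was added, which makes it a description only. It shares Sp8 and Sp9 with the list of interneuron transcription factors above, so these lists are not separate descriptions. All 10 had a log2FC below 0, with a median of −0.57, and edgeR called 1 of them, Th. Their summed FPKM was 19.3–31.5 in EAE libraries. In PBS libraries it was 57.2–59.4 in PBS 5, 7 and 8, 29.1–40.7 in PBS 1, 2 and 3, 17.7 in PBS 4 and 18.1 in PBS 6. S100a5, a marker of olfactory receptor neurons, went from 0 to 217 counts, with FPKM values of 8.04–8.51 in PBS 5, 7 and 8, 6.69 and 6.21 in PBS 1 and PBS 2, 0–0.296 in PBS 3, 4 and 6, and 0–2.13 in EAE libraries. These genes were thus at unequal levels within the PBS group, and their part in the values of Slc32a1, Gad1 and Reln was not tested.

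**Figure D5:**
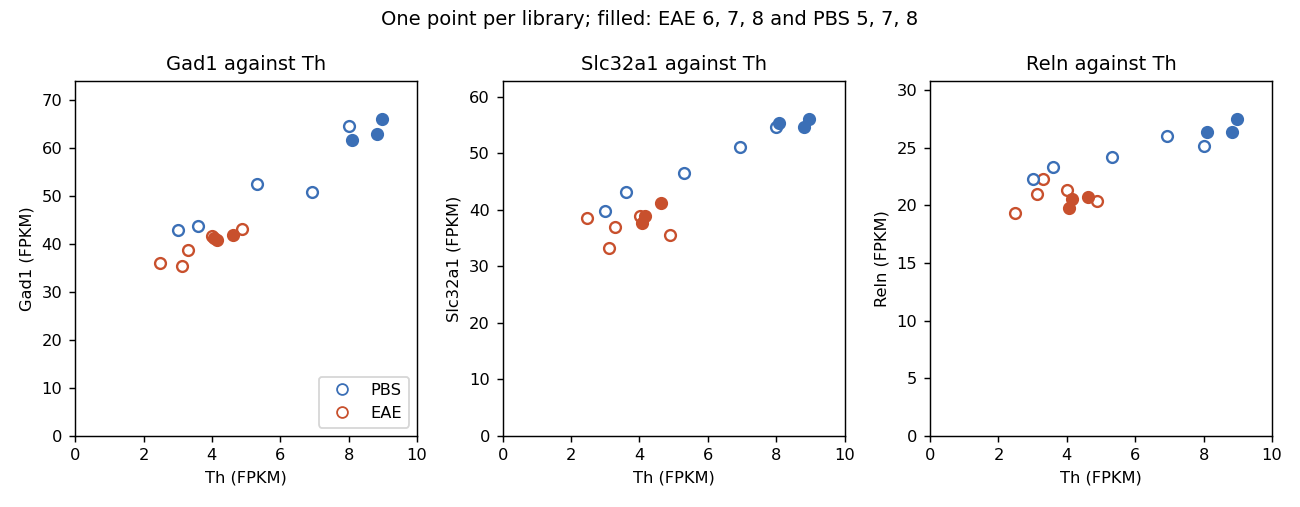
FPKM of Gad1, Slc32a1 and Reln (vertical axes, from 0) against that of Th (horizontal axis) with 1 circle per library, blue for PBS and red for EAE, filled for EAE 6, 7, 8 and PBS 5, 7, 8. The PBS libraries run from PBS 6, with Th at 3.002 and Gad1 at 42.9, to PBS 5, with Th at 8.97 and Gad1 at 66.0, while the EAE libraries lie at Th values of 2.47–4.88.

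Exons of Slc32a1, Reln and Lhx6 overlap annotated exons of Gm14205, Gm10475 and Gm27953 on GRCm38.p6, of which the first 2 are antisense and none is in the count table. The strand setting of the counting is not given in the sources used here, so reads of these overlapping stretches cannot be told apart.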

How the data were processed

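CD11b+/CD45int brain cells, labelled as microglia, of 8 EAE and 8 PBS-treated mice were sequenced. Per the labels and methods, the authors removed ribosomal RNA, aligned reads to GRCm38 with HISAT2 2.1.0 and counted them with HTSeq 0.11.2. The authors deposited raw counts, which are whole numbers, and FPKM values for 21878 mRNAs. The processing notes of the submitters also name bcl2fastq and DESeq2 1.22.2. Transcripts were annotated from RefSeq, whose release is not given in the sources used here.

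Counts were fitted by quasi-likelihood in edgeR 4.0.16 under R 4.3.3 (TMM factors, Benjamini-Hochberg adjustment over 17885 mRNAs with at least 16 counts in total, two-sided). The alternatives used RLE size factors or library totals, other filters, robust estimation, DESeq2 1.42.0, limma 3.58.1 on log2(FPKM + 0.1) or log2(FPKM + 1), a replicate block, sets of libraries and the removal of each library. The fit was checked on simulated counts of 8 against 8 libraries with 200 mRNAs changed. It recovered 53% of them at a |log2FC| of 0.4 and 94% at a |log2FC| of 1. A gene that did not pass can therefore still differ by an amount of the size reported here. Levels within a group were compared on log2(FPKM + 0.01) over 256 sign flips, and correlations over 40320 pairings. The 9 genes and the lists were chosen with earlier results of these data known, and the olfactory bulb list was added after the data were seen. From each other list, the 3 genes with the smallest p and any gene at an adjusted p under 0.05 could be named, and for each of the 9 genes the 3 mRNAs most like it. Some genes that this rule names are counted but not reported here by name. Gphn, Slc38a1 and S100a5 were named after their values were seen. With 1 library per mouse, p-values rest on the spread between these mice, which includes the unequal likeness of the libraries. A total of 0 columns of sample values was left unused.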

Additional observations from a re-analysis of the deposited data

How the results depend on the processing

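The number of the 9 genes with lower values in EAE mice at an adjusted p under 0.05 was 4, and 3–6 under the other settings, except within the 10 libraries outside the sets most alike, where it was 0. It was 3–6 when 1 library was left out, and the number with higher values was 0 throughout. For the 8 lists, 10 genes were lower. This number was 4 with library totals only, 20 with DESeq2, 2 with limma on log2(FPKM + 0.1), 2 with limma on log2(FPKM + 1), 36 within EAE 6, 7, 8 and PBS 5, 7, 8, 0 within the other 10 libraries and 2–24 when 1 library was left out. No gene of these lists was higher except within EAE 6, 7, 8 and PBS 5, 7, 8, where 3 were. Neighbours in the order of levels that differed numbered 7–8 in PBS and 4–7 in EAE libraries when 1 library was left out. On annotated exon lengths, 6 pairs of each group differed in the same order. Pairs of genes that varied together numbered 0–3 in each group when 1 library was left out. The genes that varied with the genes of all neurons numbered 0–2 in PBS and 0–4 in EAE libraries when 1 library was left out, and 2 in PBS libraries on TMM-normalized CPM. The sign of the log2FC turned for Gad2 (0.019) and Igsf9b (−0.025) within the other 10 libraries. Within EAE 6, 7, 8 and PBS 5, 7, 8 it turned for Sst (0.056), Src (0.050), Slc17a7 (0.043), Itpr1 (0.033), Lhx5 (0.20), Gfap (−0.047), Kdr (−0.38), Cdh5 (−0.13) and Tek (−0.052). For single genes, 151 other values lost and 66 gained an adjusted p under 0.05 and 1676 kept their direction and their side of it. The cause of these changes was not tested. The sets and the fits that left 1 out also had fewer libraries, and EAE 6, 7, 8 and PBS 5, 7, 8 were set apart for their small spread.

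The replicate numbers did not pair the samples. Same-numbered libraries had correlations of −0.22 to 0.57 between their deviations from the group means, 3 of 8 were over 0.1 and 2 of 8 libraries were closest to their own number. With the replicate number as a block, the edgeR fit again called 4 of the 9 genes, and its share over all mRNAs was not counted. Scaling moved the median log2FC of all mRNAs from 0.01 to at most 0.06, with library totals only. Depth weighed most on Lhx6, whose counting error alone was 6.27% of the mean in EAE and 6.28% in PBS libraries, against 6.62% and 10.2% between libraries. Intervals and errors of this kind cover counting only.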
